A study of Mus musculus with 6 samples.

Results

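The expression of 9 genes that sense hormones or set luminal cell identity was described in tumor cells of the mouse mammary gland. The rule that chose them is a list of names, with no threshold on a value. They are the steroid receptor genes Esr1 and Pgr, the prolactin receptor gene Prlr, and the genes of 6 transcription factors, Foxa1, Gata3, Elf5, Stat5a, Stat5b and Ehf. These are 9 of 47643 genes listed, of which 21717 had a count in any tumor.

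The cells were sorted as CD45-EPCAM+, that is, without the leukocyte marker and with an epithelial one, from breast tumors of FVB mice with the MMTV-PyMT transgene. In this model a mouse mammary tumor virus promoter drives the polyoma middle T antigen in mammary epithelium. Each of the 6 mice had received B20-4.1.1, an antibody against VEGF-A, by intraperitoneal injection at 5 mg/kg, 2 times per week for 6 weeks, beginning at 7 weeks of age. The 6 libraries therefore form 1 group with n = 6 and no untreated tumor, and they are called tumors 1 to 6. The study asked how treated tumors with low hypoxia (LH) and high hypoxia (HH) differ. The labels do not give the class of a tumor, so no classes were compared, and a score of hypoxia was used as a continuous measure instead.

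In the normal gland, estrogen and progesterone act on a subset of luminal cells that carry ESR1 and PGR, and these cells signal to their neighbors. Prolactin binds PRLR, which activates the kinase JAK2 and through it STAT5A and STAT5B, the factors that switch on milk protein genes in alveolar cells. GATA3 and FOXA1 hold the luminal program of hormone-sensing cells and open chromatin for the estrogen receptor, while the ETS factor ELF5 drives the alveolar fate and EHF is a related ETS factor of epithelia.

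Counts on genes ranged from 2509482 in tumor 2 to 5893246 in tumor 1. Levels are given in CPM, the counts of a gene scaled to the total counts on genes in its library. A floor of 3 counts came to between 0.509 and 1.20 CPM, and intervals and floors cover counting error only. Luminal epithelial markers were present in each tumor, with a summed level of the 7 genes between 3957 and 4874 CPM. Endothelial, fibroblast and adipocyte lists summed to at most 4.12, 23.8 and 2.18 CPM. The basal keratin gene Krt14 reached 359 CPM in tumor 5, while the myoepithelial genes Acta2, Myh11 and Cnn1 were at or below 1.21 CPM. Tumor 1 gave the library least like the rest. Its median Pearson r with them across 8873 genes was 0.788, against 0.905 to 0.939 for the other libraries. Tumor 3 had the most reads from blood cells. There the 8 immune genes summed to 218 CPM, against 15.3 to 48.7 CPM in the other tumors, and the 5 erythroid genes to 864 CPM, against 5.66 to 69.4 CPM. Of the immune genes, Lyz2 alone held 148 CPM in tumor 3, and Ptprc, which encodes CD45, was at 3.39 CPM there and 0.797 to 3.05 CPM elsewhere. Cd79a was at 0 in all 6 libraries, and Cd3e in 5. In these bulk libraries, fewer cells that express a gene and less RNA per cell cannot be told apart.

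Gata3 was the most abundant of the 9 genes. Esr1, Pgr and Foxa1, 3 of the genes that mark hormone-sensing luminal cells, were in the lower part of all genes tested. The median over the 6 tumors was 1279 CPM for Gata3, 443 CPM for Ehf, 191 CPM for Prlr, 186 CPM for Elf5, 85.8 CPM for Stat5b, 31.7 CPM for Stat5a, 6.77 CPM for Pgr, 3.90 CPM for Esr1 and 2.27 CPM for Foxa1. Among the 12088 genes that passed the filter on low counts, the median of Gata3 stood at the 99.6th percentile, that of Ehf at the 98.1th that of Pgr at the 20.3th, that of Esr1 at the 11.2th and that of Foxa1 at the 2.77th. All 9 genes passed this filter, and 6 of 9 had a median of at least 10 CPM. Other markers of hormone-sensing luminal cells were not all low. Ly6a stood at the 84.2th percentile, Prom1 at the 81.7th, Wnt5a at the 62.4th and Cited1 at the 8.88th, while Tbx3 and Sult1e1 did not pass the filter.

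**Figure D1:**
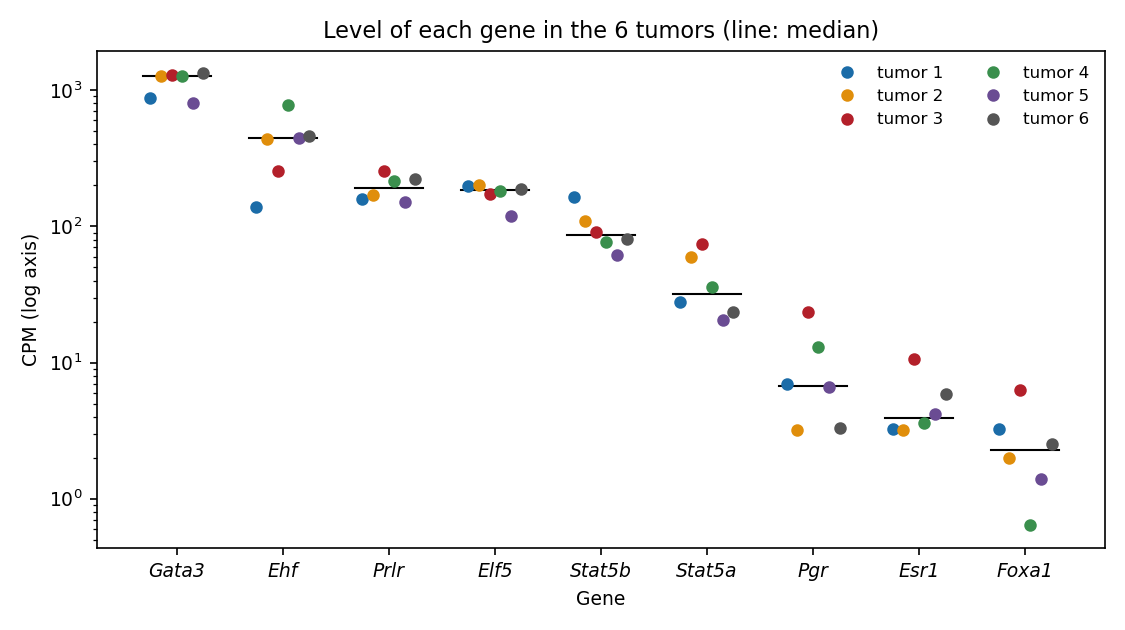
CPM of the 9 genes in each of the 6 tumors on a log axis, ordered by their median (black line); each colored point is 1 tumor. Gata3 lies between 802 and 1329.5 CPM, and Esr1, Pgr and Foxa1 lie at or below 23.5 CPM in every tumor, with tumor 3 at the top of each of these 3 genes.

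Esr1 (ENSMUSG00000019768, GRCm38 chromosome 10, 4611593 to 5005614, plus strand) encodes estrogen receptor alpha. It was at 3.22, 3.19, 10.7, 3.62, 4.19 and 5.86 CPM in tumors 1 to 6. Tumor 3 was the highest, at 3.35 times the lowest. The exact Poisson 95% interval of its 44 counts, 7.75 to 14.3 CPM, lay above the values of the other 5. It overlapped the interval of tumor 6, 3.95 to 8.36 CPM. Pgr (ENSMUSG00000031870, chromosome 9, 8899833 to 8968611, plus strand) encodes the progesterone receptor and is itself a target of the estrogen receptor. It was at 6.96, 3.19, 23.5, 13.0, 6.59 and 3.32 CPM in tumors 1 to 6. Tumors 3 and 4 were the highest, and the range of 7.38-fold was the widest among the 8 genes with more than 3 counts in every tumor. Esr1 and Pgr were both highest in tumor 3 and both lowest in tumor 2, which has the shallowest library, with 8 counts of each. The immune and erythroid genes given above were also highest in tumor 3, and their part in these values was not tested.

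Among the genes of the steroid receptor family, Esr1 and Pgr were minor ones. Of 9 genes, 7 passed the filter and 4 differed among the tumors beyond counting error (chi-square, adjusted p), beside 90.5% of all genes tested. The most abundant was Nr3c1, which encodes the glucocorticoid receptor, at 32.4 to 90.0 CPM. Divided by the length of the exons, as TPM, Nr3c1 made up a median of 51.2% of the summed family, Pgr 5.64% and Esr1 1.87%. Esr2, which encodes estrogen receptor beta, was at 0 to 0.851 CPM and did not pass the filter. The 8 coregulator genes of these receptors all passed it, led by the corepressor gene Ncor1 at 357 to 1046 CPM and by Nrip1, a corepressor of estrogen receptor alpha, at 60.6 to 373 CPM. Both were lowest in tumor 1.

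The target genes of estrogen and progesterone were mostly low or without a count. Of 10 genes, 6 passed the filter, and 3 had no count in any tumor. These 3 are Tnfsf11, the RANK ligand gene through which progesterone signals to neighboring cells, Calcr and Tff1. Greb1 was at 0.970 to 6.17 CPM, Areg, the amphiregulin gene, at 0.848 to 10.8 CPM and Wnt4 at 0.797 to 7.76 CPM. Xbp1 and Igfbp4 were the 2 with a median of at least 10 CPM. Xbp1, which also serves the secretory pathway, was at 202 to 403 CPM and highest in tumor 3. Igfbp4 was at 273 CPM in tumor 5 and at 23.1 to 45.1 CPM in the other 5. The 3 genes Esr1, Pgr and Wnt4 were each highest in tumor 3, while Greb1 was at 0.970 CPM there, its lowest value. Of the marker genes of hormone-sensing luminal cells, Cited1 was at 1.20 to 9.21 CPM and Sult1e1 at 0 to 0.242 CPM, while Prom1, Ly6a and Wnt5a were above 20 CPM in every tumor. Tbx3 was at 0.399 to 4.36 CPM and did not pass the filter.

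Prlr (ENSMUSG00000005268, chromosome 15, 10177238 to 10349180, plus strand) was expressed at a much higher level than the steroid receptors. It was at 157, 169, 255, 214, 149.95 and 224 CPM in tumors 1 to 6. The values spanned 1.70-fold, with tumors 3, 4 and 6 above 1, 2 and 5. Prlr overlaps the gene Gm21973 on the same strand, which had no count in any tumor. The ligand gene Prl was also without a count. Per length, the median of Prlr was 32.5 TPM, against 2.01 TPM for Pgr and 0.733 TPM for Esr1.

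Stat5b and Stat5a, the factors downstream of PRLR, are neighbors on chromosome 11 that point away from each other, with 8626 bases and 0 genes between them. Stat5b (ENSMUSG00000020919, 100780731 to 100850724, minus strand) was at 164, 109.98, 91.2, 76.4, 61.3 and 80.4 CPM in tumors 1 to 6. Stat5a (ENSMUSG00000004043, 100859351 to 100885169, plus strand) was at 27.7, 59.4, 74.2, 35.7, 20.6 and 23.4 CPM in tumors 1 to 6. Tumor 5 was the lowest of both genes, but tumor 1 was the highest of Stat5b and lay below tumors 2, 3 and 4 for Stat5a. Stat5b was the higher of the pair in 6 of 6 tumors in CPM. The ratio of Stat5b to Stat5a in CPM was 5.93, 1.85, 1.23, 2.14, 2.98 and 3.43 in tumors 1 to 6. The mean log2 ratio was 1.37 ± 0.79 (SD, n = 6), with a two-sided exact sign-flip permutation p of 0.03125, the smallest that 6 tumors can give, or 0.0625 after adjustment over the 8 neighboring pairs of the CPM order. Per length, as TPM over union exons, the ratio was 1.58 to 7.63. With the length of the longest transcript instead, Stat5b was higher in 5 of 6 tumors (exact sign-flip permutation p = 0.0625, adjusted p = 0.125). Stat5a was the 1 gene of the 9 for which tumors 2 and 3, whose mouse identifiers share a prefix, lay outside the range of the other 4. This was so for 14.1% of all genes, and what the prefix stands for is not given in the sources used here. The 3′ end of Stat5a overlaps that of Stat3, on the opposite strand, by 72 bases.

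**Figure D2:**
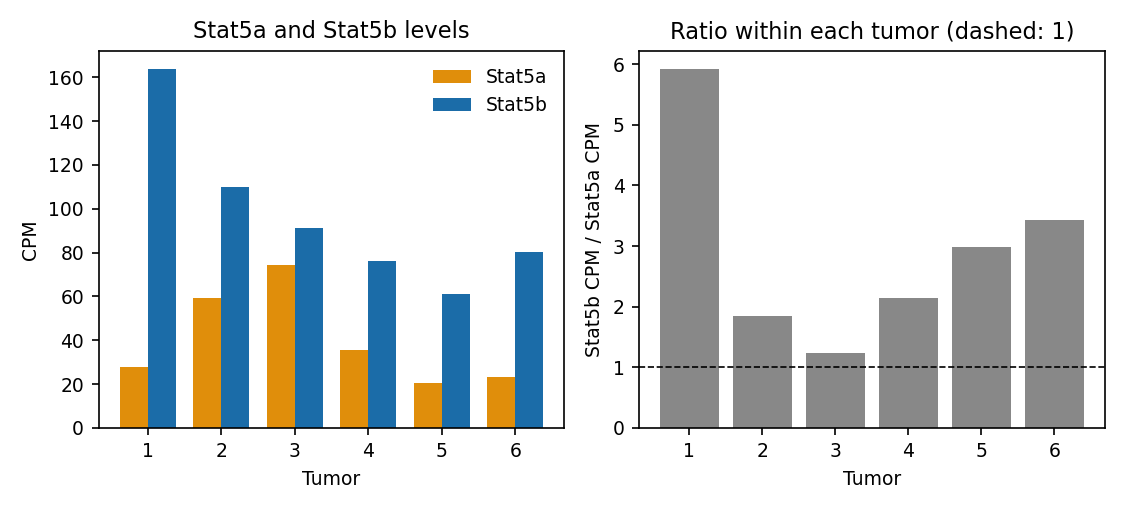
Left, CPM of Stat5a and Stat5b in each tumor; right, the ratio of Stat5b to Stat5a, with a dashed line at 1. Each bar is 1 tumor. The ratio is above 1 in all 6 tumors and runs from 1.23 in tumor 3 to 5.93 in tumor 1.

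The STAT5 genes were not the main STAT genes of these cells. Stat3, which in the mammary gland is known for its role in involution, was at 597 to 1081 CPM, and per length it made up a median of 67.0% of the 7 STAT genes, against 10.7% for Stat5b and 3.49% for Stat5a. Of the other 10 genes of prolactin signaling, 8 passed the filter, and all 8 differed among the tumors beyond counting error, as did 90.5% of all genes tested. Jak2, the kinase bound to PRLR, was at 27.6 to 51.9 CPM. Of the feedback inhibitors that STAT5 is known to induce, Cish was at 38.7 to 55.1 CPM with a dispersion of 0.120 of the trend, the spread edgeR fits for genes of like abundance, and Socs2 was at 73.8 to 336 CPM. Socs2 was highest in tumor 1, where Stat5b was also highest, but Cish was at 43.6 CPM there and highest in tumor 4. Socs3, also on the list, was lowest in tumor 1, at 42.8 CPM. Id2, a factor needed for alveolar growth, was at 360.2 to 1151 CPM and lowest in tumor 1.

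Milk protein genes, the best known STAT5 and ELF5 targets, were expressed in each tumor. All 7 passed the filter and differed beyond counting error, beside 90.5% of all genes, and their summed level was 6161 to 9746 CPM, most of it from Csn3 at 4845 to 8396 CPM. Wap was at 59.3 to 318 CPM, Csn1s2a at 10.6 to 208 CPM and Glycam1 at 1.20 to 58.1 CPM. Each of these 3, and also Csn1s1, Csn2 and Lalba, was lowest in tumor 5, where Stat5a, Stat5b and Elf5 were lowest too. Csn3 was the exception, at 6058 CPM in tumor 5 and lowest in tumor 2. The median dispersion of the 7 milk protein genes was 3.02 times the trend, beside a median of 0.635 over all genes tested.

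**Figure D3:**
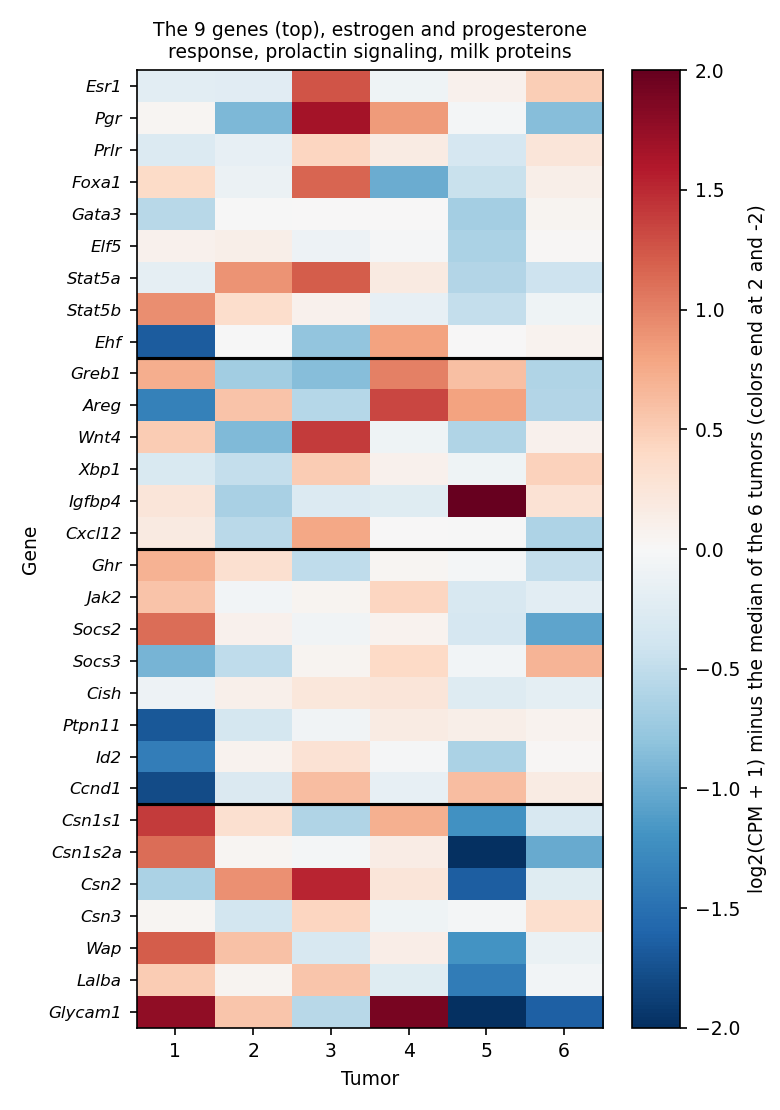
log2(CPM + 1) minus the median of the 6 tumors, by tumor (columns) and gene (rows), for the 9 genes and the genes of 3 lists that passed the filter; black lines part the lists, and colors end at 2 and -2. In the column of tumor 5, 6 of the 7 milk protein genes are at their lowest, together with Prlr, Gata3, Elf5, Stat5a and Stat5b, while Esr1, Pgr, Prlr, Foxa1 and Stat5a are highest in tumor 3.

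Gata3 (ENSMUSG00000015619, chromosome 2, 9857078 to 9890034, minus strand) was at 871, 1278, 1292, 1281, 802 and 1329.5 CPM in tumors 1 to 6. The tumors formed a high set of 4 and a low pair, tumors 1 and 5, and the whole range was 1.66-fold. Gata3 overlaps 9230102O04Rik on the same strand, a gene at 3.00 to 6.79 CPM. Foxa1 (ENSMUSG00000035451, chromosome 12, 57540628 to 57546916, minus strand) was at 3.22, 1.99, 6.30, 0.638, 1.40 and 2.54 CPM in tumors 1 to 6. The value of tumor 4 rests on 3 counts, with an exact Poisson 95% interval of 0.132 to 1.86 CPM, and that of tumor 3 on 26 counts, with an interval of 4.12 to 9.24 CPM. These intervals do not overlap, and no fold is given because tumor 4 was at the floor. Per length, Gata3 made up a median of 99.3% of the 9 FOXA and GATA genes and Foxa1 0.217%. Foxa2, Gata4 and Gata5 had no count, and Foxa3 was at 0.390 to 3.90 CPM.

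Elf5 (ENSMUSG00000027186, chromosome 2, 103411688 to 103450989, plus strand) had the lowest dispersion for its abundance of the 9 genes with all 6 tumors, though not without tumor 1 or without tumor 3. It was at 198, 202, 174, 183, 119 and 189 CPM in tumors 1 to 6, so that 5 tumors lay close together and tumor 5 below them. Ehf (ENSMUSG00000012350, chromosome 2, 103263433 to 103303278, minus strand) lies next to Elf5, with 108409 bases and no coding gene between them, but had a different profile. It was at 139, 440.3, 255, 778, 445 and 463 CPM in tumors 1 to 6. Tumor 1 was the lowest and tumor 4 the highest, at 5.58 times tumor 1. Ehf was higher than Elf5 in 5 of 6 tumors, tumor 1 being the exception. The ratio in CPM was 0.706 to 4.25, and the exact sign-flip permutation p was 0.0625. Of the 7 epithelial ETS genes, Ehf made up a median of 52.7% per length, Elf5 21.6% and Elf1 13.9%. Spdef, a factor of secretory epithelia, was at 3.59 to 22.6 CPM, lowest in tumor 5 and highest in tumor 1.

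The other luminal regulators gave a setting for these values. Of 15 genes, 14 passed the filter and 13 had a median of at least 10 CPM. Nfib was at 1447 to 2880.3 CPM and Sox9 at 861 to 1399 CPM, in the range of Gata3 or above it. Tfap2c, a factor that works with the estrogen receptor in luminal cells, was at 384 to 643 CPM. Of the 6 luminal progenitor markers, Kit was at 64.3 to 133 CPM, Aldh1a3 at 24.6 to 221 CPM and Sox10 at 543 to 1835 CPM. Sox10 was highest in tumor 1. Cd14 was at 31.2 to 146 CPM and Tspan8 at 7.97 to 41.0 CPM, while Itga2 was low, at 0.679 to 5.58 CPM.

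Compared per length, the order of the medians was Gata3 at 822 TPM, Ehf at 202, Elf5 at 80.6, Stat5b at 38.9, Prlr at 32.5, Stat5a at 11.6, Pgr at 2.01, Foxa1 at 1.73 and Esr1 at 0.733 TPM. For 4 of the 8 neighboring pairs the same gene was higher in all 6 tumors, namely Gata3 over Ehf, Elf5 over Stat5b, Prlr over Stat5a and Stat5a over Pgr. Their two-sided exact sign-flip permutation p was 0.03125, or 0.0625 after Benjamini-Hochberg adjustment over the 8 pairs, and the order was set from the same medians. Ehf over Elf5 and Foxa1 over Esr1 held in 5 of 6 tumors. Stat5b over Prlr held in 3 of 6 and Pgr over Foxa1 in 3 of 6, so these neighbors did not differ beyond their spread, and no pair of the 8 had an adjusted p under 0.05. With the length of the longest transcript, Foxa1 over Esr1 held in 3 of 6, with a mean log2 ratio of -0.13, the median of Esr1 was 1.29 TPM, and Prlr moved above Stat5b. In CPM, without the division by length, Prlr moved above Elf5 and Esr1 above Foxa1. The libraries read 3′ ends, whose counts depend little on length.

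All 9 genes differed among the tumors by more than counting error (chi-square against the library totals, Benjamini-Hochberg adjusted p of 9.29e-06 for Foxa1 and smaller for the other 8), and so did 90.5% of all genes tested. Without tumor 3, 8 of the 9 did, Esr1 being the exception. Each tumor has 1 library, so technical and biological spread were not separated. The chi-square test also takes each count as a separate molecule, which could not be checked. The size of the spread did differ among the 9 genes. The edgeR dispersion was 2.51 times the trend for Pgr, 2.42 times for Ehf, 2.01 times for Stat5a and 1.67 times for Foxa1. It was 0.946 of the trend for Stat5b, 0.834 for Esr1, 0.470 for Gata3, 0.387 for Prlr and 0.337 for Elf5. The median over all genes was 0.635, and Pgr stood at the 91.5th percentile and Elf5 at the 29.0th. Without tumor 1, whose library was least like the rest, the ratio was 5.11 for Pgr, 4.00 for Stat5a and 1.34 for Esr1. It was then 0.795 for Elf5, 0.784 for Gata3 and 0.697 for Prlr, beside 0.764 for Stat5b, so these 3 genes did not stand below Stat5b in that setting. Without tumor 3 it was 1.07 for Pgr and 0.197 for Esr1, and without tumor 4 it was 1.76 for Ehf and 0.896 for Foxa1. Without tumor 5 it was 0.0749 for Elf5. Gata3, Prlr and Elf5 spanned 1.66-fold to 1.70-fold over the 6 tumors, against 2.67-fold for Stat5b, 3.35-fold for Esr1, 3.61-fold for Stat5a, 5.58-fold for Ehf and 7.38-fold for Pgr.

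**Figure D4:**
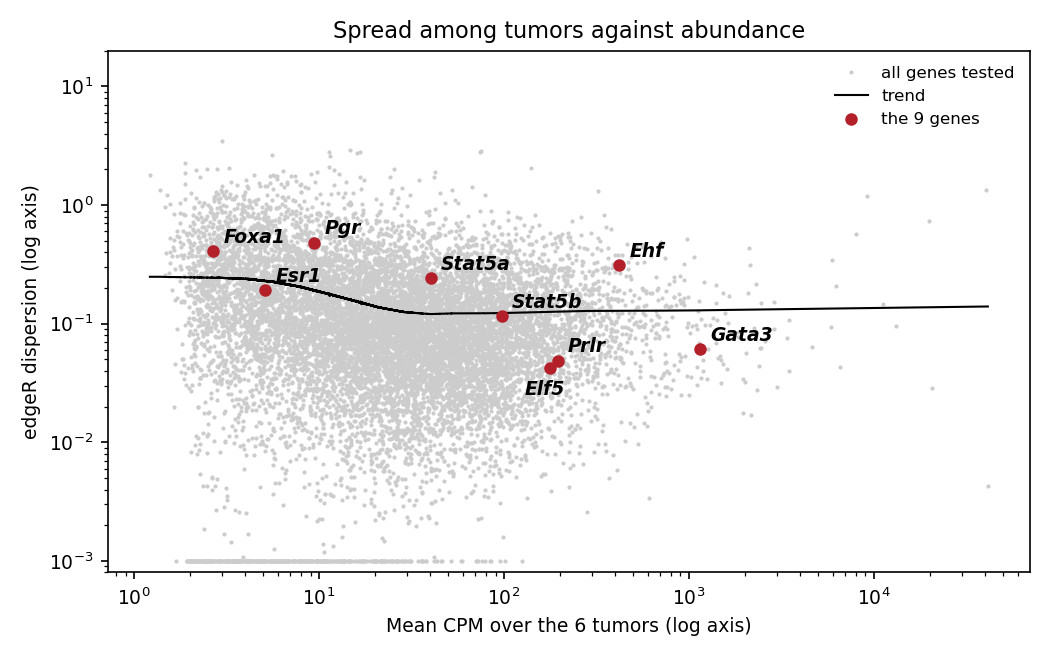
edgeR dispersion against mean CPM over the 6 tumors, both on log axes, for all genes tested (gray), the fitted trend (black line) and the 9 genes (red); dispersions below 0.001 are drawn at 0.001. Pgr, Ehf, Stat5a and Foxa1 lie above the trend, and Gata3, Prlr and Elf5 below it.

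Tumors 3 and 5 held most of the extremes. Of the 9 genes, 5 were highest in tumor 3 (Esr1, Pgr, Prlr, Foxa1 and Stat5a), beside 16.1% of all genes, and 5 were lowest in tumor 5 (Prlr, Gata3, Elf5, Stat5a and Stat5b), beside 11.8% of all genes. With TMM or DESeq2 scaling, tumor 3 was the highest for 4 of the 9, Prlr being the exception. For 2 of the 9 genes, Esr1 in tumor 3 and Elf5 in tumor 5, the CPM of 1 tumor was past Dixon's critical value for a single distant value, as it was for 16.3% of all genes. When CPM was computed without the 10 most abundant genes of each library, tumor 5 was the lowest for 3 of the 9, without Prlr and Gata3. Tumor 5 also had the highest summed level of basal genes, 504 CPM against 132 to 289 CPM in the other tumors. Krt14 and Krt17 made up most of it, at 359 and 127 CPM. The basal genes Krt5 and Trp63 were highest in tumor 4, and were at 10.2 and 4.59 CPM in tumor 5. Tumor 3 had the highest immune and erythroid sums. The part of these sums in the extremes was not tested.

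The hypoxia score, the mean TPM of Vegfa, Slc2a1 and Car9, was 48.5, 37.2, 51.4, 76.6, 94.4 and 47.3 in tumors 1 to 6. None of the 9 genes had a slope on the log2 score that passed the test (edgeR quasi-likelihood, adjusted p between 0.954 and 0.966). With this score and all 6 tumors, none reached an unadjusted p under 0.05. With a geometric mean of the 3 genes as the score, Stat5b had an unadjusted p of 0.0137 in the edgeR test (adjusted p = 0.436). With the mean TPM score, the edgeR test called 0 of 12085 genes (0%), of which 510 had an unadjusted p under 0.05. DESeq2 called 15 genes, none of them among the 9. The slope was below 0 for 7 of the 9 genes, and for 6431 of all 12085. Slopes are in log2 CPM per doubling of the score. Their SE was worked back from the test, as the size of the slope over the square root of its F statistic. The slope was -0.78 ± 0.38 (SE) for Stat5b, with an unadjusted p of 0.0703 in the edgeR test, and -0.88 ± 0.50 for Stat5a. It was -0.51 ± 0.33 for Elf5, -1.32 ± 0.87 for Foxa1 and -0.38 ± 0.39 for Gata3. Prlr had -0.18 ± 0.38 and Esr1 -0.29 ± 0.68. Ehf and Pgr had slopes above 0, of 0.51 ± 0.57 and 0.51 ± 0.91. Without tumor 1, the slope was -0.61 for Stat5b (edgeR quasi-likelihood, unadjusted p = 0.0301, adjusted p = 0.562). It was then -1.01 for Stat5a (edgeR quasi-likelihood, unadjusted p = 0.0379, adjusted p = 0.587). Leaving out other single tumors moved some slopes by over 1.5 times. Without tumor 5, the slope was -0.22 for Elf5, -0.04 for Gata3, -0.53 for Stat5a, -0.08 for Esr1 and 1.87 for Pgr. Without tumor 4, it was -0.78 for Foxa1, 0.08 for Ehf, -0.08 for Esr1 and 0.28 for Pgr. Over the fits with 1 tumor left out, the slope ran from -0.74 to -0.06 for Esr1, from -0.15 to 1.87 for Pgr, from -0.37 to 0.22 for Prlr and from 0.08 to 1.04 for Ehf. The errors of these slopes are wide at n = 6, and they do not show that the genes are unrelated to the score. Over 87 slopes of the 9 genes under other settings, 2 had the other sign, namely Pgr without tumor 2 at -0.15 and Prlr without tumor 5 at 0.22.

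**Figure D5:**
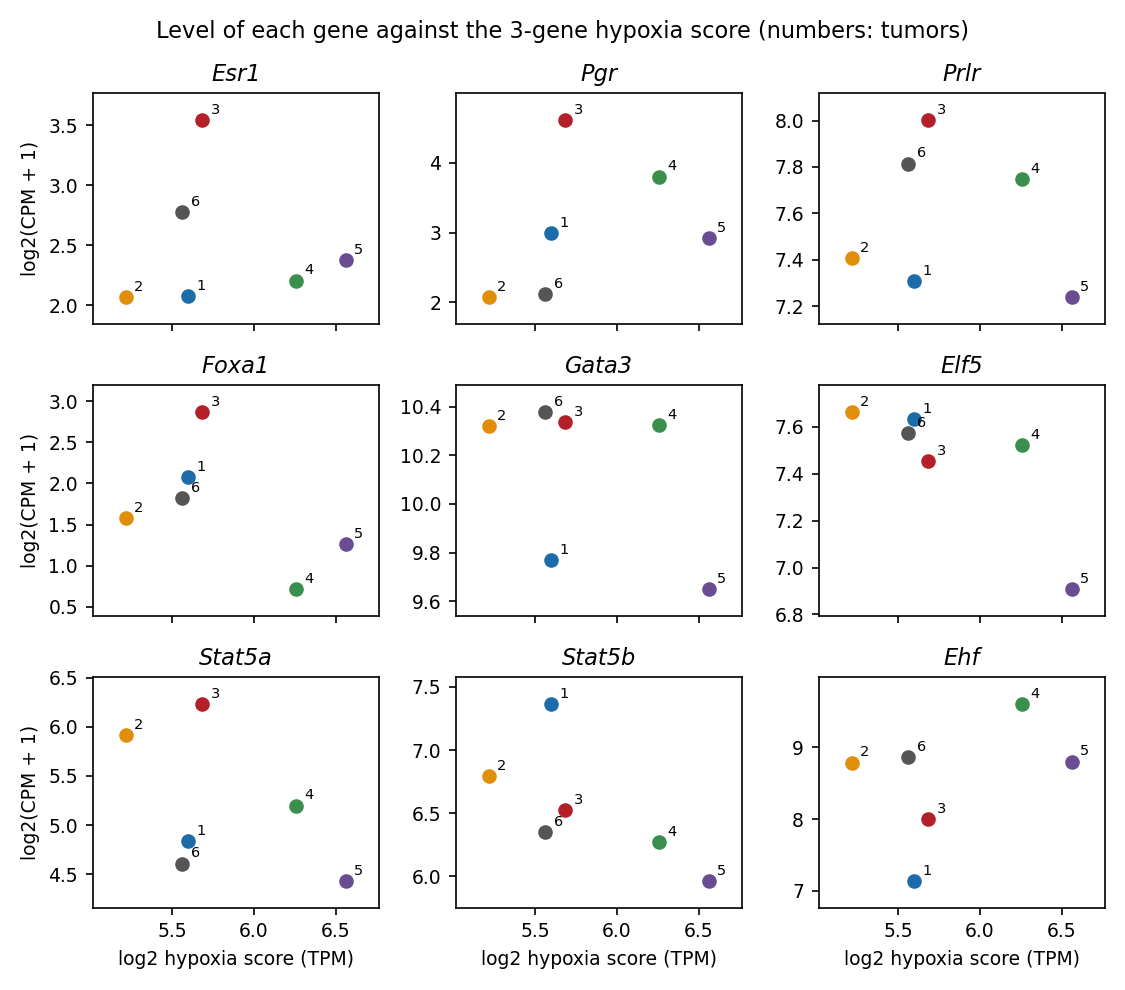
log2(CPM + 1) of each of the 9 genes (one panel each, with its own vertical axis) against log2 of the 3-gene hypoxia score; each point is 1 tumor, with its number. Tumor 5, with the highest score, is the lowest point for Prlr, Gata3, Elf5, Stat5a and Stat5b, and tumor 3, near the middle of the score, is the highest point for Esr1, Pgr, Prlr, Foxa1 and Stat5a.

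Correlations over the 6 tumors were computed for the 9 genes with the score, for the 36 pairs among the genes, and for 27 relations of the genes with the mean of 3 lists (milk protein, estrogen and progesterone response, and basal genes), and none passed Benjamini-Hochberg adjustment. Values were log2(TMM-scaled CPM + 1), and p comes from a two-sided exact permutation test over all 720 orders. The smallest p this test allows is 0.00139, so a single pair among the 36 could not pass adjustment. With the score, Elf5 had Pearson's r of -0.83 (exact permutation p = 0.025, adjusted p = 0.225) and Spearman's rho of -0.94 (exact permutation p = 0.0167). Without the 2 tumors farthest from the median score, r was -0.69. Among the pairs, Prlr with Gata3 had r of 0.83 (exact permutation p = 0.0569, adjusted p = 0.736) and rho of 0.77 (exact permutation p = 0.103), and r of 0.64 without the 2 tumors farthest in Prlr. Esr1 with Pgr had r of 0.50 (exact permutation p = 0.288, adjusted p = 0.859) and rho of 0.31 (exact permutation p = 0.564), and r of 0.21 without 2 tumors. Without tumor 3 alone, this r was -0.39. Stat5a with Stat5b had r of 0.21 (exact permutation p = 0.694, adjusted p = 0.917) and rho of 0.26 (exact permutation p = 0.658), and r of 0.24 without 2 tumors. It was 0.72 without tumor 1 and -0.22 without tumor 5, so single libraries set its size and sign. Elf5 with the milk protein list had r of 0.81 (exact permutation p = 0.0903, adjusted p = 0.741) and rho of 0.37 (exact permutation p = 0.497). This r was -0.19 without the 2 tumors farthest in the list and -0.09 without tumor 5 alone, so it rests on them. Stat5a with the basal list had r of -0.83 (exact permutation p = 0.05, adjusted p = 0.741) and rho of -0.89 (exact permutation p = 0.0333). This r was -0.64 without the 2 tumors farthest in the list, and ran from -0.97 to -0.75 with 1 tumor left out. The 2 tumors of one identifier prefix are too few for a value within it.

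For each of the 6 genes whose mean reached 10 CPM, the 3 genes with the most similar profile over the 6 tumors were looked up among 8872 others by Pearson's r. Prlr was closest to Car6 (r = 0.98), Trip4 (0.98) and Slc5a1 (0.97), and Gata3 to Ctnnbip1 (0.98), Acsl1 (0.97) and Sox5 (0.97). Elf5 was closest to Lao1 (0.98), Rbm45 (0.97) and Lrrc75b (0.97), and Stat5a to Itfg2 (0.98), Ttpa (0.97) and Tango2 (0.97). Stat5b was closest to Fam160b2, Tap1 and Shf (0.99 each) and Ehf to Bclaf1, Usp15 and Kif5b (0.99 each). Stat5b and Ehf, which have their extreme in tumor 1, had 408 and 402 genes with r above 0.9, while the other 4 had between 24 and 69. With 6 points drawn from the same libraries, these values are a description.

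Promoter sequence was looked at for letters that factors among the 9 are known to bind. RefSeq start sites on GRCm38.p6 gave 14 windows of 250 bases upstream for 8 of the 9 genes. Of the letters searched on both strands, the STAT motif TTCNNNGAA was in the windows of Esr1 and Prlr (7.02% of all 32851 windows hold it) and the forkhead motif TGTTTAC in those of Foxa1 and Prlr (3.17%). The progesterone receptor motif ACANNNTGT was in 1 window of Stat5b (5.84%) and the ETS motif CCGGAA in those of Gata3 and Stat5b (12%). The GATA motif AGATAA (9.99% of all windows) and the estrogen response element GGTCANNNTGACC (0.0639%) were in none of the 14. The letters of the ETS motif can lie inside a STAT match, which was not so here. The stretches with the STAT, forkhead and progesterone receptor motifs are shown. Each sets a gene of the group beside letters that one of its factors binds, which for Foxa1 is FOXA1 itself. They are written 5′ to 3′ on the strand of the gene, with the matched letters in capitals, at chr10:4709945-4710003 (plus) for Esr1, chr15:10223666-10223829 (plus) for Prlr, chr12:57546221-57546277 (minus) for Foxa1 and chr11:100822652-100822710 (minus) for Stat5b.
Esr1: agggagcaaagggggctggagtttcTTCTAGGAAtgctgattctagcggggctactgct
Prlr: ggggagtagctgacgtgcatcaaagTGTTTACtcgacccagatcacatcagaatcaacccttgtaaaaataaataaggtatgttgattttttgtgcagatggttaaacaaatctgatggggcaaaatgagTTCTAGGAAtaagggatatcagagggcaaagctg
Foxa1: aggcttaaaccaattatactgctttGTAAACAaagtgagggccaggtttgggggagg
Stat5b: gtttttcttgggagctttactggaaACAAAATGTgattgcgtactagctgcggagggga
The windows of Esr1 and Prlr held the same 9 letters, TTCTAGGAA, which begin 188 and 110 bases before the start site. A match describes the letters and not binding, and the printed stretches belong to start sites inside the genes, whose use was not measured here.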

How the data were processed

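RNA from sorted CD45-EPCAM+ cells of 6 tumors was made into 3′ libraries (QuantSeq FWD, with a module for molecular identifiers). Per the labels and the methods, the authors ran bbduk for trimming, STAR 2.5 for alignment to the mouse genome (GRCm38/mm10) and HTSeq for counting, through Bluebee. What was deposited for each library is a raw count per gene, without normalization. The annotation release, the strand setting and whether identifiers were collapsed are not given in the sources used here, so overlapping genes are uncertain. The chi-square test and the Poisson intervals take each count as a separate molecule, which could not be checked. If identifiers were not collapsed, they understate the counting error. Reads on no gene (16.1 to 41.4% per library) were left out.

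Counts were scaled to CPM, or to TPM with union exon lengths of GENCODE M21, which matched 47224 of 47643 identifiers. Genes were kept if they reached, in at least 3 tumors, the CPM that 10 counts make at the median library size. They also needed a total of at least 15 counts, which left 12088 genes. Dispersions came from estimateDisp without shrinkage, and slopes on the log2 score from the quasi-likelihood test with TMM factors. The slope and chi-square tests were tested on simulated data with 200 changed genes. The slope test recovered 61.5% of them, at a median slope of 1.98 in size, so it missed many changed genes. The chi-square test recovered 100%. Of the calls, 4.65% and 3.38% were false. The 3 genes of the score were left out of counts of slopes called. Log values used a pseudocount of 1, and calls an adjusted p of 0.05. The 6 libraries are separate samples by their labels, and where technical and biological spread are not separated, p-values measure the spread between these samples.

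The genes named are the 9, those of the gene lists, and for each of the 9 whose mean reached 10 CPM the 3 most similar in profile. The 9 genes and the lists were chosen with earlier results of these data known. Alternatives were other scalings, lengths, filters, scores and pseudocounts, DESeq2, and each tumor left out. Software was R 4.3.3, edgeR 4.0.16, DESeq2 1.42.0 and Python 3.11.15 with scipy 1.17.1. Other fractions and groups of the study were not analysed here.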

Additional observations from a re-analysis of the deposited data

Results flagged for a closer look

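In 2 of the 9 genes the CPM of 1 tumor lay far from the other 5. For Esr1 the gap between tumor 3, the highest, and the next tumor was 0.643 of the whole range. For Elf5 the gap between tumor 5, the lowest, and the next tumor was 0.667 of the range. Both exceed Dixon's 95% critical value for 6 values. Chance flags about 1 in 20 groups, and 16.3% of the 12088 genes tested were past this value, so 2 of 9 is near the background. On TMM-scaled CPM the gaps were 0.525 and 0.519, and neither gene was past the value. On log2(CPM + 1) the gap was 0.721 for Elf5 and 0.519 for Esr1, and Elf5 alone was past it. Tumor 3 also had the highest immune sum, 218 CPM, and the highest erythroid sum, 864 CPM, and their part in the Esr1 value was not tested.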

How the results depend on the processing

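The number of genes with a slope on the hypoxia score at an adjusted p under 0.05 was 0 with edgeR, 15 with DESeq2 and 10 with no filter on low counts, and 0 to 2 when 1 tumor was left out, the 2 without tumor 1. The cause was not tested. None of these were among the 9 genes, whose lowest adjusted p was 0.436 over 87 slopes, for Stat5b with a geometric mean score. Foxa1 failed the filter in 3 of the fits with a tumor left out and has no slope there. The number of the 9 genes with 1 tumor past the Dixon value was 2 on CPM, 0 on TMM-scaled CPM and 1 on log2(CPM + 1). The median CPM moved by more than 1 SD for 3 of 81 alternatives, those of Prlr, Gata3 and Elf5 without the 10 most abundant genes, at 239.5, 1574 and 224 CPM. The other counts stayed within 1.5 times, including the neighboring pairs in the order (3 to 5) and the correlations past adjustment (0 under each alternative). With 6 tumors the exact permutation p cannot go below 0.00139 for a correlation. A single pair among the 36 then cannot pass adjustment, and with 1 tumor left out no single relation of any family can. The 0 correlations past adjustment in those settings were therefore close to fixed in advance. No paired analysis was possible because all 6 tumors belong to 1 group. For Esr1, Pgr and Foxa1, with 3 to 97 counts per tumor, depth limits the precision.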
